A study of Mus musculus with 6 samples.

Results

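Chronic 3,3'-iminodipropionitrile (IDPN) exposure was examined here for one antiviral gene family of the mouse vestibular epithelium, the OAS family. The members were taken by symbol and comprised 8 of the 52636 genes in the table: Oas1a, Oas1b, Oas1c, Oas1g, Oas2, Oas3, Oasl1 and Oasl2. All 6 animals were male 129S1/SvImJ mice of 2 to 4 months. The 3 IDPN animals drank water with 30 mM IDPN, a nitrile toxic to sensory hair cells (HCs), for 8 weeks, and the 3 Control animals drank plain water. Each library was 1 animal, with the epithelium of 2 utricles and 6 cristae pooled, so the values are averages over all cell types of these organs. In such bulk samples, fewer cells of a type and less RNA per cell cannot be told apart. A stem is shared by the title codes of all Control animals and by no IDPN animal's, so whatever it stands for cannot be told apart from the treatment. Within the IDPN group, the title codes of replicates 2 and 3 share another stem, which replicate 1 lacks.

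OAS enzymes are sensors of double-stranded RNA (dsRNA). Upon binding it, the catalytically active members join ATP into 2'-5'-linked oligoadenylates (2-5A), a second messenger of the antiviral response. Most members are transcribed in response to interferon, through STAT and IRF factors bound to an interferon-stimulated response element (ISRE) in their promoters. Some mouse members have lost the synthetase activity and are known for other roles.

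Libraries held 40474847 to 43566332 estimated counts. The size factors used to normalize them ran from 0.825 to 1.21. The labelled tissue was checked on 9 HC markers, all of which had counts in every library. Genes count as called here where the DESeq2 p-value, adjusted over all genes by the Benjamini-Hochberg method (Padj), was under 0.05 and the fold change above 1.5. In the IDPN group, 6 of the 9 HC markers were called downregulated, against 3.42% of all genes tested.

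All 8 genes lie on chromosome 5 (GRCm38, gene models of GENCODE M21), in 2 groups. Oasl2 (chr5:114896936-114912234, plus strand) and Oasl1 (chr5:114923240-114937915, plus strand) are neighbours. The remaining 6 lie further along the chromosome. These are Oas2 (chr5:120730333-120749853, minus), Oas3 (chr5:120753098-120777661, minus), Oas1c (chr5:120800194-120812514, minus), Oas1b (chr5:120812635-120824163, plus), Oas1g (chr5:120876142-120887613, minus) and Oas1a (chr5:120896256-120907521, minus). Oas1b and Oas1c start head to head. Oas1b is annotated as a polymorphic pseudogene, since its reference allele is truncated in many laboratory strains. Exons of Oasl1 overlap those of Gm13822, and exons of Oas1c overlap those of Gm43069, so reads in the overlaps could be assigned to either gene.

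Promoter sequence from RefSeq (GRCm38.p6) was at hand for 6 of the 8 members, and not for Oas1b and Oas2. Each window covered 250 bases before the gene start and 50 after it. It was searched on both strands for the ISRE core GAAANNGAAA, with overlapping matches allowed, and for the STAT-binding GAS motif TTCNNNGAA. Of 32817 distinct windows of this length over all genes, 3.43% held the ISRE core and 8.29% held the GAS motif. Both searches describe letters only, and neither a match nor its absence shows whether a factor binds. The promoters of the 3 members that were called, Oasl2, Oasl1 and Oas1a, are shown with those of Oas1g and Oas1c, because the latter pair carry the same letters as Oas1a. Annotated exons were left out, the sequences read 5′ to 3′ on the strand of the named gene, and ISRE cores are in capitals.
Oas1a (chr5:120907522-120907775, minus): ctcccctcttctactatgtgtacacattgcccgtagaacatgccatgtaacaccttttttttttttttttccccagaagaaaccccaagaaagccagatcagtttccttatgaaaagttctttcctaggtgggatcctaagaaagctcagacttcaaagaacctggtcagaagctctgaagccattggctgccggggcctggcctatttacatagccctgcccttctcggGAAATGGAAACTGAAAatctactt
Oas1g (chr5:120887614-120887863, minus): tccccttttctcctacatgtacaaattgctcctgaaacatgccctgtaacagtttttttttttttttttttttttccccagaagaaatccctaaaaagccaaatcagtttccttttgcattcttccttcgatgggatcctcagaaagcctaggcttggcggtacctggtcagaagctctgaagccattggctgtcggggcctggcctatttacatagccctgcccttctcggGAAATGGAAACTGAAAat
Oas1c (chr5:120812515-120812634, minus): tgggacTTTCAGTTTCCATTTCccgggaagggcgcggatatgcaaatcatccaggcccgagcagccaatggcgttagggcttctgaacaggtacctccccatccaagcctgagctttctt
Oasl2 (chr5:114896684-114896935, plus): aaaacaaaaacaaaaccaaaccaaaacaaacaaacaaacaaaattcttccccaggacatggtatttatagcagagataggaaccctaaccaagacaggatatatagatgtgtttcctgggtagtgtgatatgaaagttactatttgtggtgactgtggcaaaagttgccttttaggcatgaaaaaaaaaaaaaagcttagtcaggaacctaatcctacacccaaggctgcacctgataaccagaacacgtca
Oasl1 (chr5:114922990-114923203, plus): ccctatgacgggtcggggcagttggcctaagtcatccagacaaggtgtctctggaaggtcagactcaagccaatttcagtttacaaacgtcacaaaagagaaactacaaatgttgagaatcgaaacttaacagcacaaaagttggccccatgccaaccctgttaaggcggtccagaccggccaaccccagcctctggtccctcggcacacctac
Oas1a and Oas1g each held 2 overlapping ISRE cores in an identical run of 16 letters. In Oas1a this run began 20 bases before the RefSeq start used for the windows, which is 24 bases before the GENCODE start given above. In Oas1g, where both starts coincide, it began 18 bases before it. Oas1c held the same run on its other strand. Since that stretch lies between Oas1c and Oas1b, the run read in the direction of Oas1b begins 22 bases before the Oas1b start. Over all genes, 7 of the 32817 windows (0.0213%) held this run on either strand. Oas3 held 1 core, 75 bases before its RefSeq start. The windows of Oasl2 and Oasl1 held neither the ISRE core nor the GAS motif, and among the 6 windows that of Oas1a was the one with a GAS match.

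Oasl2, Oasl1 and Oas1a were upregulated after IDPN. All 8 members had counts in at least 1 library, and 7 had enough for a Padj, all but Oas3. Of these 7, 3 were called upregulated and none downregulated, where 2.32% of the 17650 genes tested were called upregulated. All 7 had a positive log2 fold change, with a median of 1.42, against a median of 0.015 over all genes tested. In 5 of the 7, every IDPN library lay above every Control library, which held for 11.1% of all genes tested. With the edgeR quasi-likelihood test, 2 of the members were called, against 1.02% of all genes upregulated. With scaling by total counts in place of median-of-ratios, 3 were called, against 3.64% of all genes.

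**Figure D1:**
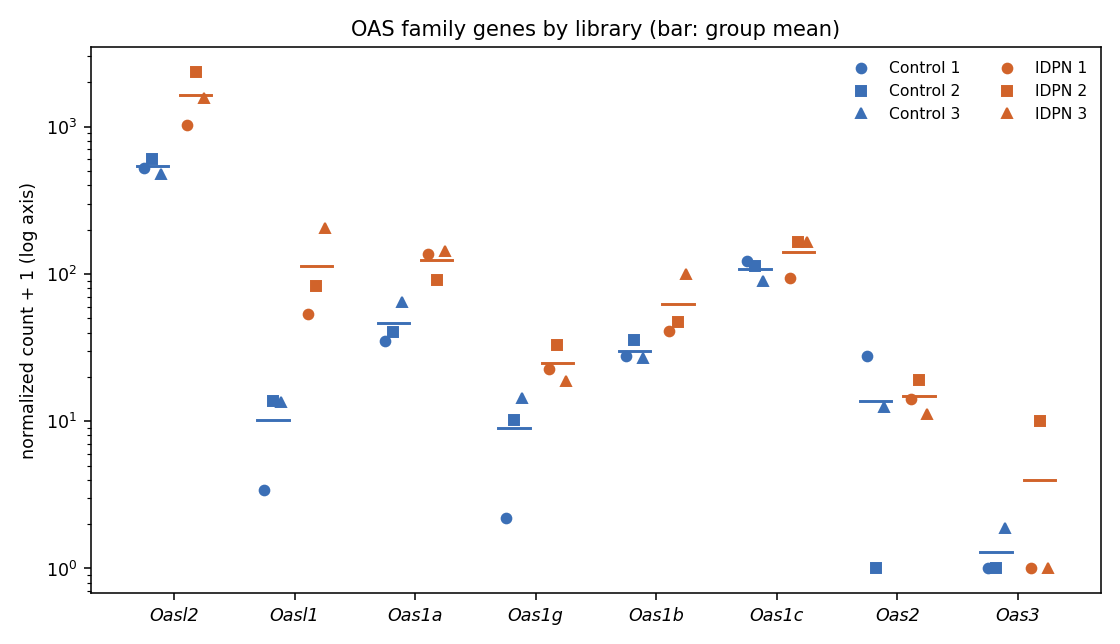
Normalized counts plus 1 (log axis) of the 8 OAS family genes in each of the 6 libraries; points are libraries (marker shape gives the replicate) and bars are group means. All IDPN points lie above all Control points for Oasl2, Oasl1, Oas1a, Oas1g and Oas1b, and the groups overlap for Oas1c, Oas2 and Oas3.

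Oasl2 was the most abundant member. It encodes a synthetase with ubiquitin-like domains at its end. The Control libraries, in the order of replicates 1 to 3, held 525, 604 and 479.5 normalized counts, and the IDPN libraries, in the same order, 1020.4, 2343 and 1566. Each IDPN library exceeded each Control library, and IDPN 2 held the most. The mean rose from 536 ± 62.8 to 1643 ± 665 (SD, n = 3 each), a 3.07-fold change (log2 fold change 1.62, SE 0.26; DESeq2 Padj = 6.24e-08). Oasl2 was also called by edgeR (adjusted p = 0.00938), and it was called when any of the 6 libraries was left out.

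Oasl1, the neighbour of Oasl2, has no synthetase activity and is known as a translational repressor of the interferon regulator Irf7. Its normalized counts were low in Control, at 2.43, 12.7 and 12.5, and reached 52.1, 82.3 and 203 in IDPN. The groups were well apart, and here IDPN 3, not IDPN 2, was highest. Among the called members it had the largest fold change, 12.0-fold (log2 fold change 3.59, SE 0.60; DESeq2 Padj = 2.80e-07). Oasl1 was called by edgeR as well (adjusted p = 0.0196). It was called with any single library left out, and its log2 fold change then ranged from 2.85 (without IDPN 3) to 3.94.

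Oas1a encodes an active synthetase. It had 34.0, 39.2 and 63.2 normalized counts in Control and 136, 89.4 and 143 in IDPN. Control 3 and IDPN 2 came closest to each other, but the groups did not overlap. The change was 2.68-fold (log2 fold change 1.42, SE 0.37; DESeq2 Padj = 0.00469). This call was less stable than those of the Oasl genes. The edgeR adjusted p was 0.0589, and the DESeq2 Padj was above 0.05 without Control 1 (0.0567), Control 2 (0.0527), IDPN 1 (0.0688) or IDPN 3 (0.0862). The call held without Control 3 (0.000734) and without IDPN 2 (0.00497). Over all genes, upregulated calls rose from 410 to 611 without Control 3. They fell to 243 without Control 1, 246 without Control 2, 340 without IDPN 1, 234 without IDPN 2 and 265 without IDPN 3.

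**Figure D2:**
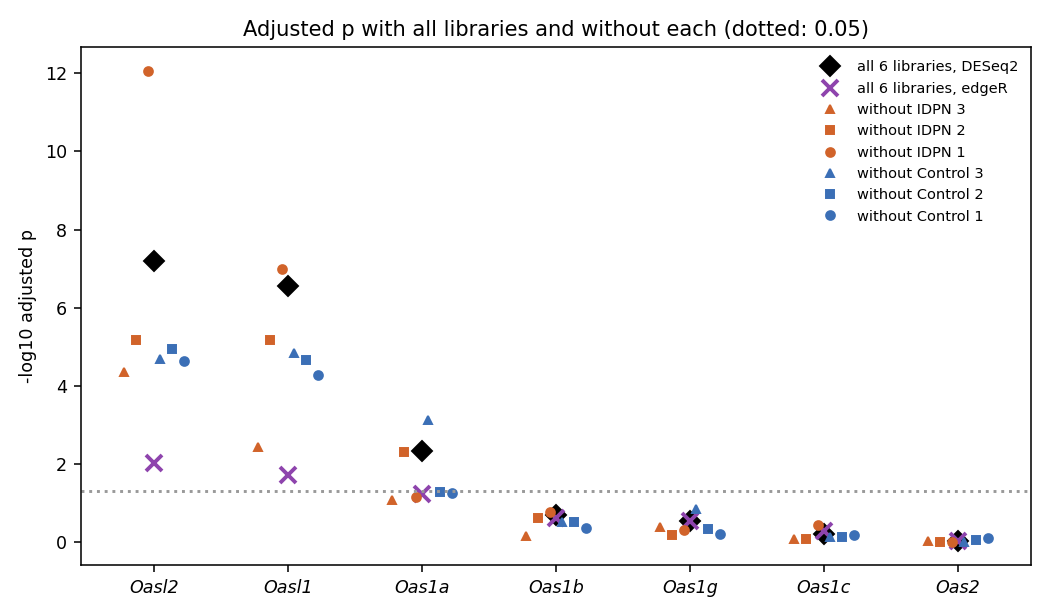
Negative log10 of the adjusted p for 7 OAS family genes, with all 6 libraries in DESeq2 (diamonds) or edgeR (crosses) and in DESeq2 without each library in turn (small markers); the dotted line is 0.05. Oasl2 and Oasl1 stay above the line in each case, Oas1a falls on both sides of it, and the remaining genes stay below it.

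Oas1g encodes the active synthetase closest in sequence to Oas1a. Its values were 1.21, 9.23 and 13.3 in Control and 21.5, 32.1 and 17.7 in IDPN. All IDPN libraries were higher, but the counts were few and the gene was not called (log2 fold change 1.56, SE 0.79; DESeq2 Padj = 0.296). With 1 library left out, the log2 fold change of Oas1g ranged from 1.06 (without Control 1) to 2.18 (without Control 3). Oas1a and Oas1g cannot be fully separated by short reads. Of all 76-base stretches of the longest coding Oas1a transcript, 47.3% also occur in Oas1g. For the longest coding Oas1g transcript, 44.3% occur in Oas1a. These shares are from the reference genome of another strain, C57BL/6J. They count single stretches, while the libraries were read in pairs, and shares per read pair were not computed. RSEM divides reads that match both genes between them by estimation. Their sum does not depend on that division, and it was 35.2, 48.5 and 76.5 in Control and 157, 121 and 161 in IDPN. The sum of the pair was thus higher in every IDPN library, with a log2 ratio of means of 1.46.

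Oas1b, known for its full-length allele that confers resistance to flaviviruses, is not an active synthetase. It had 26.7, 34.6 and 25.8 normalized counts in Control and 39.7, 46.2 and 98.9 in IDPN. The groups did not overlap, but the difference did not pass the test (log2 fold change 1.09, SE 0.49; DESeq2 Padj = 0.201). IDPN 3 carried much of it, and without that library the log2 fold change was 0.57 (Padj = 0.723).

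Oas1c, its head-to-head neighbour, also lacks synthetase activity. Its values were 121, 112 and 88.1 in Control and 92.7, 165 and 164 in IDPN. IDPN 1 lay within the Control range, and the gene was not called (log2 fold change 0.39, SE 0.32, 95% interval −0.24 to 1.02; DESeq2 Padj = 0.608). Among the member windows searched, 3 held the 16-letter run, those of Oas1a, Oas1g and Oas1c, and of these genes Oas1c overlapped between groups. The same copy of the run lies 22 bases before the start of Oas1b, whose groups did not overlap. Every IDPN library lay above every Control library in 11.1% of all genes tested. Whether the fold changes of Oas1a, Oas1g and Oas1c differ was not tested.

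Oas2 and Oas3, the larger synthetases with repeated OAS units, were close to the limit of detection. For Oas2, the estimated counts were 22, 0 and 13 (Control) and 16, 18 and 11 (IDPN). The ranges overlapped (log2 fold change 0.12, 95% interval −1.79 to 2.04; DESeq2 Padj = 0.973), and the interval is wide enough to hold a change in either direction. Oas3 had 0, 0 and 1 counts in Control and 0, 9 and 0 in IDPN. All IDPN counts of Oas3 therefore came from IDPN 2, and no difference was detectable at this depth. A count of 0 in a library allows a level of up to 0.0689 to 0.0741 CPM (3 counts of the library total), which covers counting error only, since the protocol has no molecular identifiers. The 4 other Oas1 genes of this locus were almost silent, with 0 counts in all libraries for Oas1e, Oas1f and Oas1h and 4 counts in all for Oas1d.

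The order of the levels was compared per kilobase of the longest coding transcript. In Control, Oasl2 came first, with 172 ± 20.1 normalized counts per kilobase (SD, n = 3). It was followed by Oas1c (46.8 ± 7.48), Oas1a (24.1 ± 8.26) and Oas1b (15.8 ± 2.65), of which Oas1a and Oas1b overlapped. Levels of Oasl1 (4.21 ± 2.69), Oas1g (4.01 ± 3.12) and Oas2 (3.22 ± 3.38) overlapped, and Oas3 (0.063 ± 0.109) came last, within the range of Oas2. In IDPN, Oasl2 was again first, at 526 ± 213 per kilobase. Oas1a (65.1 ± 15.4), Oas1c (61.3 ± 18.1), Oasl1 (51.5 ± 36.5) and Oas1b (33.6 ± 17.7) formed the next group, in which each overlapped its neighbour. Oas1g (12.0 ± 3.78), Oas2 (3.50 ± 0.995) and Oas3 (0.638 ± 1.11) came below. So Oas1c stood clear of Oas1a in Control but not in IDPN, and Oasl1 moved from among the low members to the middle.

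Because some paralogs share reads, the family was also summed. By the 76-base stretches described above, the members that share with each other were Oas1a and Oas1g. Oas1c shared 1.44% of its stretches, with Oas1d, Oas1e and Oas1f. Oas1b, Oas2, Oas3, Oasl1 and Oasl2 shared none, so their values do not depend on such sharing. The 8 members together gave 737, 811 and 695 normalized counts in Control and 1375, 2785 and 2202 in IDPN. Every IDPN sum was above every Control sum, and the spread was wider in IDPN. The mean went from 748 ± 59.0 to 2121 ± 708 (SD, n = 3 each), a 2.84-fold ratio (1.504 on the log2 scale). With any single library left out, the log2 ratio ranged from 1.26 (without IDPN 2) to 1.74 (without IDPN 1). The sum is mostly Oasl2, which made up 71.5% ± 2.71 of it in Control and 76.5% ± 6.81 in IDPN. Without Oasl2, the other 7 members summed to 212, 208 and 215 in Control and 355, 442 and 636 in IDPN. These sums did not overlap either, with a log2 ratio of 1.17. By subfamily, the log2 ratio was 1.69 for Oasl1 and Oasl2, 0.88 for the 4 Oas1 members and 0.37 for Oas2 and Oas3. The share of Oas1c in the family counts was 12.7 to 16.4% in Control and 5.91 to 7.46% in IDPN, and these ranges did not overlap. Its own mean was 107 normalized counts in Control and 141 in IDPN, so the lower share was not a lower level. The share of Oasl1 did not overlap either, at 0.329 to 1.79% in Control and 2.96 to 9.19% in IDPN.

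**Figure D3:**
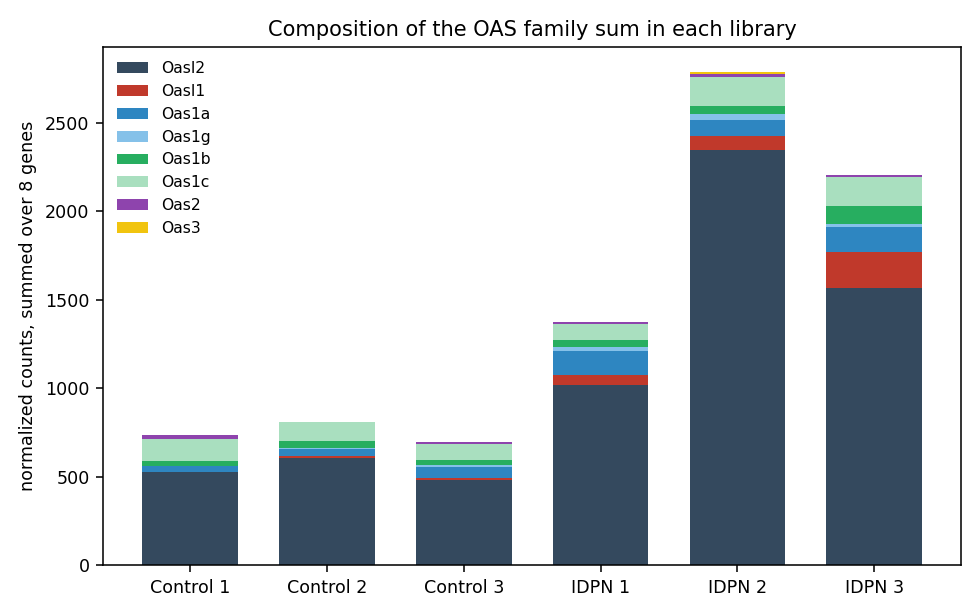
Stacked bars of normalized counts of the 8 OAS family genes in each library (linear axis from 0); each colour is 1 gene and the full height is the family sum. The IDPN bars reach 1375 to 2785 and the Control bars 695 to 811, and Oasl2 is the main part of every bar.

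IDPN 2 ranked first for Oasl2, Oas1g, Oas2 and Oas3 among the IDPN animals, and IDPN 3 ranked first for Oasl1, Oas1a and Oas1b. Values of Oas1c in these 2 libraries were nearly equal, and IDPN 1 ranked first for no member. Some of these ranks rest on few counts, namely those of Oas2 (16, 18 and 11 in IDPN 1 to 3) and Oas3 (0, 9 and 0). That of Oas1a rests on a small gap, with 136 in IDPN 1 and 143 in IDPN 3. With Oasl2 highest in IDPN 2 and Oasl1 highest in IDPN 3, the IDPN animals did not share 1 order across the family. IDPN 1 also differs from IDPN 2 and IDPN 3 in the stem of its title code. As the most abundant member, Oasl2 sets the order of the sum.

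Of 3 other genes tied to 2-5A, 0 were called, where 2.32% of all genes tested were called upregulated and 3.42% downregulated. All 3 had a positive log2 fold change (median 0.10), as had 9116 of the 17650 genes tested. Akap7 is an anchoring protein with a phosphoesterase domain able to degrade 2-5A. Every IDPN library lay above every Control library for Akap7, as in 11.1% of all genes tested. Its values were 97.0, 255 and 192 in Control and 284, 345 and 381 in IDPN (log2 fold change 0.89, SE 0.31; DESeq2 Padj = 0.0595). Akap7 was called when scaled by total counts (Padj = 0.0331) and without Control 2 (Padj = 0.0129). It was not called by edgeR (adjusted p = 0.167). The DESeq2 Padj was also above 0.05 without Control 1 (0.278) or Control 3 (0.0898). The same held without IDPN 1 (0.0977), IDPN 2 (0.185) or IDPN 3 (0.309). Pde12, a phosphodiesterase that removes 2-5A, had a log2 fold change of 0.10 (95% interval −0.46 to 0.67). Abce1, known for ribosome recycling, had a log2 fold change of 0.05 with a narrow interval of −0.27 to 0.36.

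Among other dsRNA sensors, Eif2ak2, Adar, Zbp1, Ddx58 and Ifih1 were upregulated. These were 5 of the 8 genes of this kind, and none was called downregulated, where 2.32% of all genes were called upregulated. The median log2 fold change of the 8 was 0.73, and the IDPN libraries lay above Control in 6, as in 11.1% of all genes. Eif2ak2 encodes PKR, the kinase that halts translation upon dsRNA binding, and had 186, 218 and 105 normalized counts in Control and 293, 346 and 372 in IDPN (log2 fold change 1.00; DESeq2 Padj = 0.0105). Adar, the dsRNA editing enzyme, increased by 0.78 on the log2 scale (Padj = 0.00142). Ifih1 and Ddx58 encode the helicases MDA5 and RIG-I, with log2 fold changes of 0.75 (DESeq2 Padj = 0.00558) and 0.72 (DESeq2 Padj = 0.0137). Zbp1, a sensor of Z-form nucleic acid, had 1, 2 and 0 estimated counts in Control and 6, 15 and 58 in IDPN (DESeq2 Padj = 0.00909), most of them in IDPN 3. It did not pass a filter of at least 10 counts in 3 libraries, under which 4 of the 8 genes were called. The uncalled genes were Dhx58 (0.53, Padj = 0.269), Tlr3 (0.47, Padj = 0.0580) and the adaptor Mavs (−0.02, Padj = 0.966). The edgeR test called 2 of the 8, Adar and Ifih1, against 1.02% of all genes, and Zbp1 had too few counts to enter it. Without IDPN 3 the DESeq2 count was 1, Adar, and the Padj was 0.124 for Eif2ak2, 0.161 for Ddx58 and 0.0830 for Ifih1, with none for Zbp1. Without IDPN 2, Eif2ak2 (0.0625) and Ddx58 (0.0608) were not called, and Ddx58 was not called without Control 1 either (0.118). Upregulated calls over all genes also fell in these settings, from 410 with all libraries. They were 265 of 16879 genes tested without IDPN 3, 234 of 17373 without IDPN 2 and 243 of 17427 without Control 1.

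Of 12 genes that carry or limit interferon signals, 5 were called upregulated and none downregulated (median log2 fold change 0.59), and 4 were called by edgeR. Over all genes these shares were 2.32% and 1.02%. Stat2 and Irf9 encode partners in the factor that binds the ISRE. Stat2 had 382, 471 and 478 normalized counts in Control and 685, 942 and 996 in IDPN (log2 fold change 0.98; DESeq2 Padj = 0.000150). Irf9 had 676, 728 and 819 in Control and 1393, 2869.5 and 2105 in IDPN (log2 fold change 1.52; DESeq2 Padj = 2.53e-08). Both were higher in every IDPN library, and IDPN 2 held the most Irf9, as for Oasl2. The factors Irf7 (1.94, DESeq2 Padj = 1.11e-06) and Irf1 (0.90, DESeq2 Padj = 0.00465) and the feedback inhibitor Usp18 (3.21, DESeq2 Padj = 1.12e-21) completed the called genes. The Irf7 Padj was 0.0516 without Control 3, and that of Irf1 was 0.0892 without Control 2 and 0.112 without IDPN 3. The receptor chains Ifnar1 (0.01) and Ifnar2 (−0.10) and the kinases Jak1 (−0.10) and Tyk2 (−0.11) had log2 fold changes near 0, and Irf2, Irf3 and Socs1 were not called. Interferon mRNA itself was not detected. All 20 interferon genes examined, of types I, II and III, had 0 counts in all 6 libraries.

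**Figure D4:**
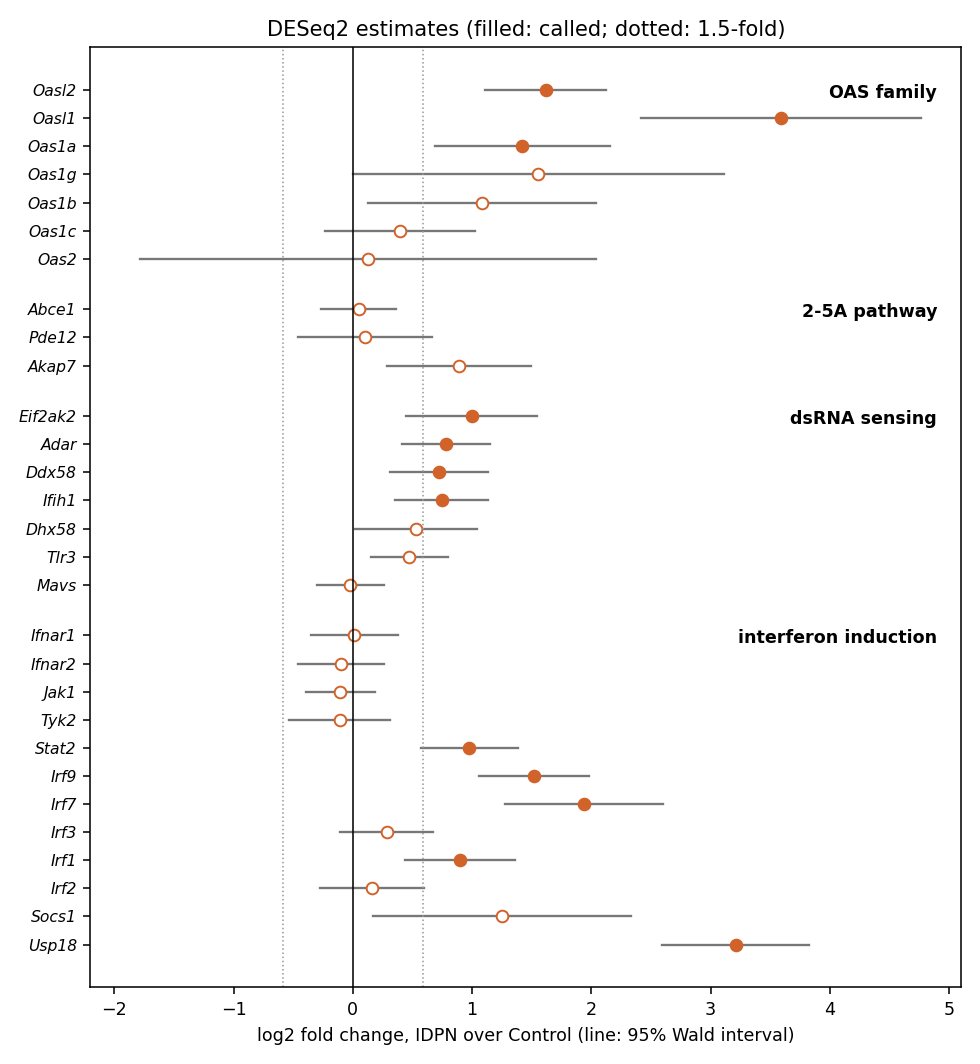
DESeq2 log2 fold changes (IDPN over Control, x axis) with 95% Wald intervals for the OAS family, the 2-5A pathway, dsRNA sensors and interferon induction genes; filled points are called and dotted lines mark 1.5-fold. Oas3 and Zbp1 are left out because their Control counts were 1 and 3 in all, and the called genes lie on the right, from 0.72 (Ddx58) to 3.59 (Oasl1).

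Macrophages also express OAS genes, and markers of other cell types are therefore given beside these values. All 13 macrophage markers were detected. Their summed normalized counts were 6087 to 7835 in Control and 8681 to 13260.2 in IDPN, and IDPN 2 was highest, as for the OAS sum. Of the 13, 11 had a positive log2 fold change (median 0.55). Only 1 was called upregulated, Lyz2 (0.77, DESeq2 Padj = 0.00401, edgeR adjusted p = 0.0708), against 2.32% of all genes tested. Lyz2 made up most of the sum. The sum of the other 12 markers overlapped between groups, with 2352 to 3238 in Control and 2856 to 4128 in IDPN, a ratio of means of 1.21. In 4 of the 13, Lyz2, C1qc (0.80), Cd68 (0.79) and Mrc1 (0.55), every IDPN library lay above every Control library. This held for 11.1% of all genes tested. Among the other macrophage markers, log2 fold changes were 1.25 for Itgam, 0.61 for Aif1, 0.56 for C1qa and 0.50 for Adgre1. They were 0.20 for Tyrobp, 0.11 for C1qb and 0.07 for Ptprc, and negative for Csf1r (−0.01) and Cx3cr1 (−0.10). With scaling by total counts, 2 of the 13 were called by DESeq2, Lyz2 and C1qc (Padj = 0.00745), against 3.64% of all genes. Lymphocyte markers summed to 131 to 238 in Control and 129.5 to 175 in IDPN, most of it Cd79a, with Cd79b, Nkg7 and Gzma at 0 in all libraries. Neutrophil markers summed to 9.79 to 62.3 in Control and 1.66 to 35.1 in IDPN, with Ly6g and Elane at 0. HC markers summed to 24656 to 25250.2 in Control and 14856 to 16291 in IDPN, a log2 ratio of −0.68. Supporting cell markers summed to 412692 to 604701 in Control and 310295 to 365668 in IDPN, a log2 ratio of −0.62. This sum follows the most abundant of the 8 genes, whose median log2 fold change was −0.46. Of these 8, Gjb6 and Sparcl1 were called downregulated and Sox10 was called upregulated. Over all genes tested, 3.42% were called downregulated and 2.32% upregulated. The sums of endothelial markers (log2 ratio −0.15) and stromal markers (0.33) overlapped between groups. Among these 12 genes Kdr alone was called, as downregulated, against the same 3.42% of all genes tested. The part of these cell types in the OAS values was not tested.

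The genes whose pattern over the 6 libraries was most like that of the family sum were sought among the 13116 genes whose normalized counts averaged 50 or more. Pearson's r of log2 normalized counts was 0.993 for Seh1l, 0.988 for Eed, 0.988 for H2-T22, 0.986 for Irf9 and 0.986 for Tom1l1. All points of these correlations share the difference between the groups, so they are given as a description. Among these 5, H2-T22 (log2 fold change 0.91, DESeq2 Padj = 0.00258) and Irf9 were called, and Seh1l, Eed and Tom1l1 were not, with log2 fold changes of 0.30, 0.35 and 0.40.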

How the data were processed

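RNA-seq libraries of 3 Control and 3 IDPN mice were made from 6 to 11 ng of RNA by a SMART-seq2 protocol with oligo-dT priming, 8 and 12 cycles of PCR and no molecular identifiers. Per the submitters' processing notes and the study's methods, the authors aligned reads with STAR 2.5.3a to GRCm38 and estimated gene counts with RSEM 2.3.0 on GENCODE M15. These expected counts were deposited as whole numbers, without normalization. Library totals are given in the report, and precision is lowest for genes with few counts.

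Differences were tested with the DESeq2 1.42.0 Wald test (R 4.3.3), normalized by the median of ratios and adjusted over all genes, since the study's methods name DESeq2 with these thresholds (Padj under 0.05, fold change over 1.5). The edgeR 4.0.16 quasi-likelihood test was an alternative, as were total-count and TMM scaling, a filter of at least 10 counts in 3 libraries, switching off independent filtering or the Cook's distance filter, and leaving out each library. The code was tested on simulated counts. The 8 members were named in every library, with partner genes from lists and the 5 genes most like the family sum (pseudocount 1). The members and lists were chosen with earlier results of these data known. Family sums have no test. Replicate numbers only name the animals, and replicate libraries differed by more than sampling noise. Sequence windows came from RefSeq and gene models from GENCODE M21. Some genes of the lists are not reported here, and the list counts leave them out.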

Additional observations from a re-analysis of the deposited data

How the results depend on the processing

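Between 2 and 3 OAS members were called under each alternative tried, Oasl2 and Oasl1 in all of them, and the log2 ratio of the family sum stayed between 1.26 and 1.74 over the scalings and the libraries left out. Counts of called interferon induction genes stayed within 4 to 5. The 2-5A pathway count was 1 with total-count scaling and 0 to 1 with a library left out, the called gene being Akap7. The dsRNA sensor count was 2 with edgeR and 1 to 5 with a library left out, with 3 without IDPN 2 and 1 without IDPN 3. It was 4 with the filter of at least 10 counts in 3 libraries, which Zbp1 did not pass. Over all genes, edgeR called 166 up and 357 down against 410 and 604 with DESeq2. With a library left out, DESeq2 called from 234 up (without IDPN 2) to 611 up (without Control 3). Total-count scaling called 609 up and 214 down, and moved the median gene by 0.25 (from 0.013 to 0.265 on the log2 scale). Under it, Mavs (0.23), Ifnar2 (0.17), Jak1 (0.14) and Tyk2 (0.15), all uncalled, changed sign. With a library left out, uncalled genes near 0 also changed sign, with ranges of −0.46 to 1.22 for Oas2, −0.038 to 0.11 for Abce1, −0.098 to 0.41 for Pde12, −0.17 to 0.12 for Ifnar1 and −0.25 to 0.038 for Ifnar2. Of 388 pairs of a gene and an alternative, over 30 genes, 356 kept direction and call, 18 (7 genes) lost the call, 2 (1 gene) gained it and 12 (8 genes) changed sign. The cause was not tested. No paired analysis was possible because the labels give no replicate numbers that both groups share. Depth limits the genes with few counts, Oas2, Oas3 and Oas1g.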
